A study of Mus musculus with 15 samples.

Results

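The genes described here are 9 endothelial genes of blood clotting and clot dissolution, Vwf, F8, F3, Tfpi, Thbd, Procr, Plat, Plau and Plaur, in mouse liver endothelial cells (ECs) sorted into 5 groups. The list was drawn up by function with earlier results of these data known, so it is not a blind choice. Every array probe whose transcript accession maps to 1 of these genes was taken, giving 13 probes for 9 of the 21173 genes with a named probe. The study searched for a marker of endothelial stem cells by profiling sorted liver ECs on Agilent arrays, 3 arrays per group and 15 in all. EC-SP and EC-MP were from mice of 8 weeks. The labels do not spell out SP and MP, which are read here as side population and main population, the cells that do and do not expel a DNA dye. CD157+CD200+, CD157-CD200+ and CD157-CD200- ECs were sorted from adult liver by 2 surface proteins, CD157 (gene Bst1) and CD200 (gene Cd200). All 5 groups share the sort for liver ECs, RNA extraction on RNeasy columns, whole-transcriptome amplification with Ovation Pico WTA V2 and labelling of the cDNA with Cy3. The design text speaks of 3 independent samples. Whether these were separate animals is not said, so a p-value here covers the spread between such samples alone, and that spread may be technical.

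Endothelium keeps blood fluid and, when injured, lets it clot. Von Willebrand factor tethers platelets and carries factor VIII, a cofactor in the generation of thrombin, while tissue factor, the product of F3, starts clotting and is normally kept away from blood. Tissue factor pathway inhibitor, thrombomodulin and the endothelial protein C receptor hold thrombin generation down, and the plasminogen activators tPA and uPA, with the uPA receptor, start the dissolution of fibrin. In liver, sinusoidal endothelium is the main source of factor VIII and carries little von Willebrand factor, whereas endothelium of larger vessels is rich in it.

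A level here is the log2 of a probe's processed signal minus the log2 of its array's 75th percentile, so that 0 is that percentile. The 75th percentile ranged from 157 to 297 intensity units over the 15 arrays, 57.3% to 69.4% of the 59305 spots lay well above background, and none was saturated. Arrays of 1 group correlated with Pearson's r of 0.959 to 0.973. The 6 arrays of EC-SP and EC-MP were read on another scanner model and with another software version than the 9 arrays of the CD157 and CD200 groups, so an order of levels across these sets of arrays mixes cells with scanner. Each replicate number was 1 slide that held 1 array of every group of its set. General endothelial markers, Pecam1 and Cdh5 among them, were well above background on all 3 arrays of every group for 12 of 12 genes. The sort markers followed the labels: Bst1 was higher by 4.98 ± 0.25 (SE) in CD157+CD200+ than in CD157-CD200+ (limma, Benjamini-Hochberg adjusted p = 0.000111), and Cd200, which was not well above background on any CD157-CD200- array, exceeded its level there by at least 320-fold in CD157+CD200+ and at least 154-fold in CD157-CD200+. For such a bound the dim group was taken, on each array, at the higher of the gene's own signal and the lowest signal of any probe well above background there. The CD200+ groups differed in Cd200 as well, which was higher by 1.06 ± 0.16 in CD157+CD200+ than in CD157-CD200+ (limma adjusted p = 0.0134). Both sort genes were also higher in EC-SP than in EC-MP, Bst1 by 4.34 ± 0.24 (adjusted p = 2.68e-05) and Cd200 by 3.39 ± 0.26 (adjusted p = 9.04e-05).

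Most of the 9 genes differed between EC-SP and EC-MP and between CD157+CD200+ and CD157-CD200- cells, some up and some down within the same pathway. All 9 passed the filter on dim probes in both sets of arrays. In EC-SP, Plat, Plaur, Procr and F3 were higher and Plau, F8 and Tfpi lower than in EC-MP, 7 of 9 calls, against 16.6% of all 23970 features tested (9.11% higher and 7.44% lower). Of all calls in that comparison 55.0% were higher, and 39.8% with the scaling of the authors' series table. In CD157+CD200+, Vwf, Plat, Procr, Thbd and Plaur were higher and Tfpi, F8 and Plau lower than in CD157-CD200-, 8 of 9 calls, against 15.2% of 23701 features (8.09% higher and 7.11% lower). Between CD157-CD200+ and CD157-CD200-, 7 of 9 were called, 4 higher and 3 lower, against 11.8% (6.31% higher and 5.54% lower). Between the CD200+ groups, which differ in CD157 and also in the level of Cd200, 3 of 9 were called, 2 higher and 1 lower, against 1.05% (0.802% higher and 0.245% lower). With the slide as a block it was 5 of 9, against 3.06%. The median absolute log2 difference of the 9 genes was 2.40 in EC-SP against EC-MP, where that of all features was 0.37, and 2.09 in CD157+CD200+ against CD157-CD200-, where that of all features was 0.30. These counts describe the 9 genes without a test of the list. All features, in these shares and medians, include probes without a gene symbol, so they are not shares of named genes alone. A call is an adjusted p under 0.05 in limma's moderated test, with the Benjamini-Hochberg adjustment made over every feature tested in that fit. Except where a block is named, no fit had a term for the slide, so spread between slides stays in its SE. This holds for the fits with arrays left out, in which calls below are said to be lost.

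**Figure D1:**
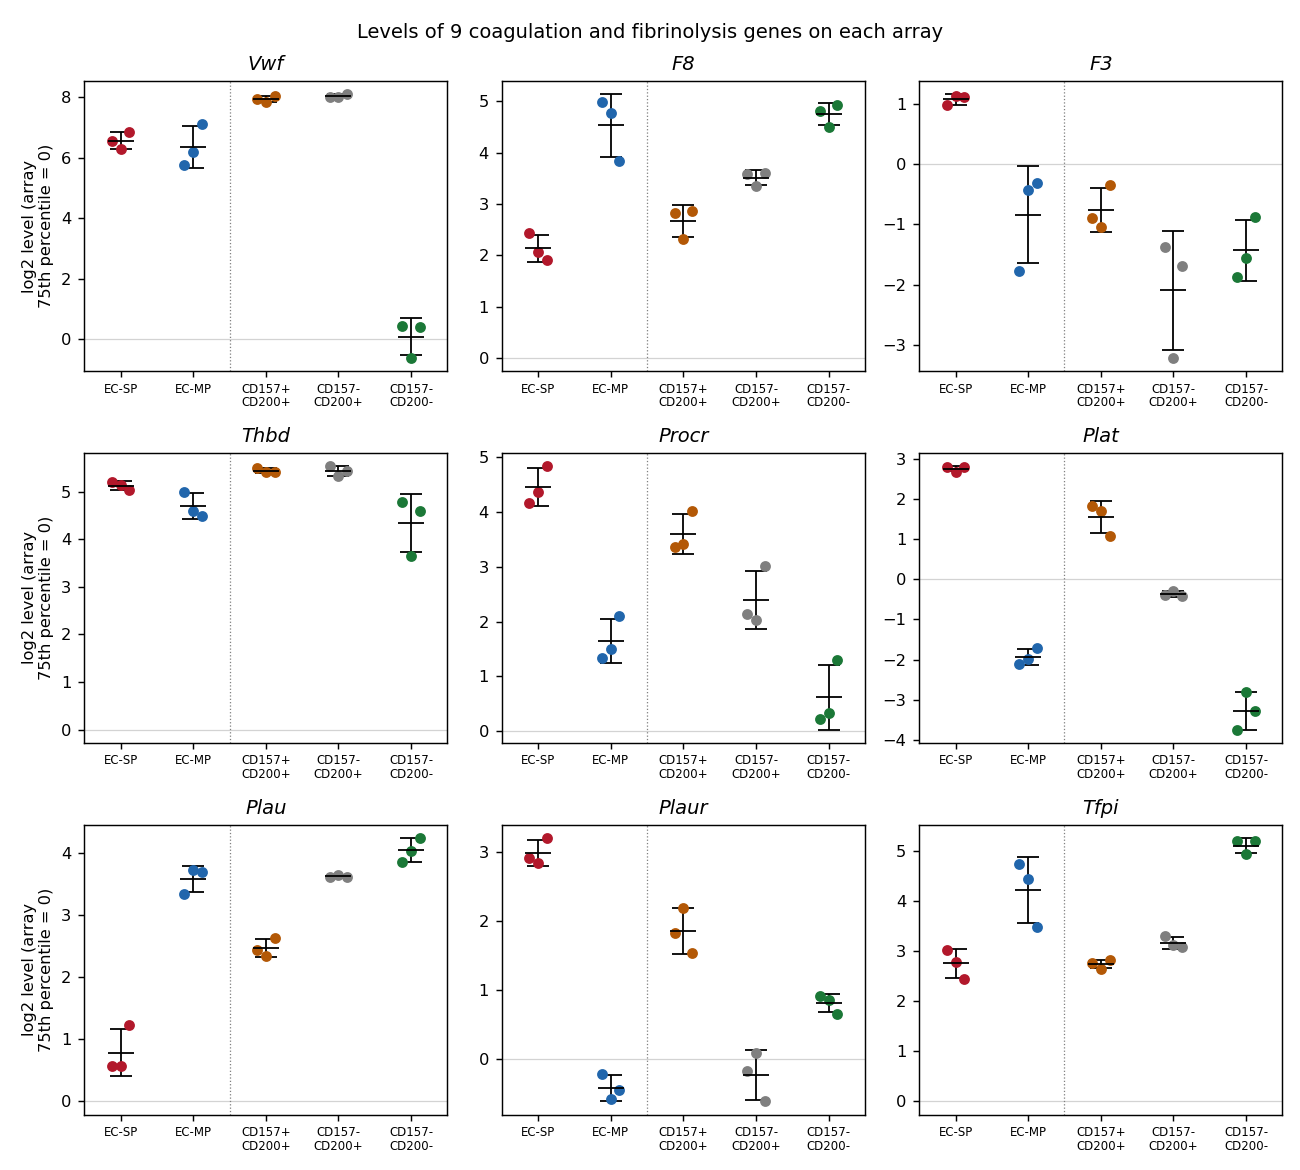
Levels of the 9 genes on each of the 15 arrays, as log2 of the processed signal with the array's 75th percentile at 0; points are arrays and bars are means ± SD of 3 arrays, for EC-SP and EC-MP (left) and for CD157+CD200+, CD157-CD200+ and CD157-CD200- (right), 2 sets read on different scanners. Vwf is near 8 in both CD200+ groups and near 0 in CD157-CD200-, while in EC-SP and EC-MP its points overlap.

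**Figure D2:**
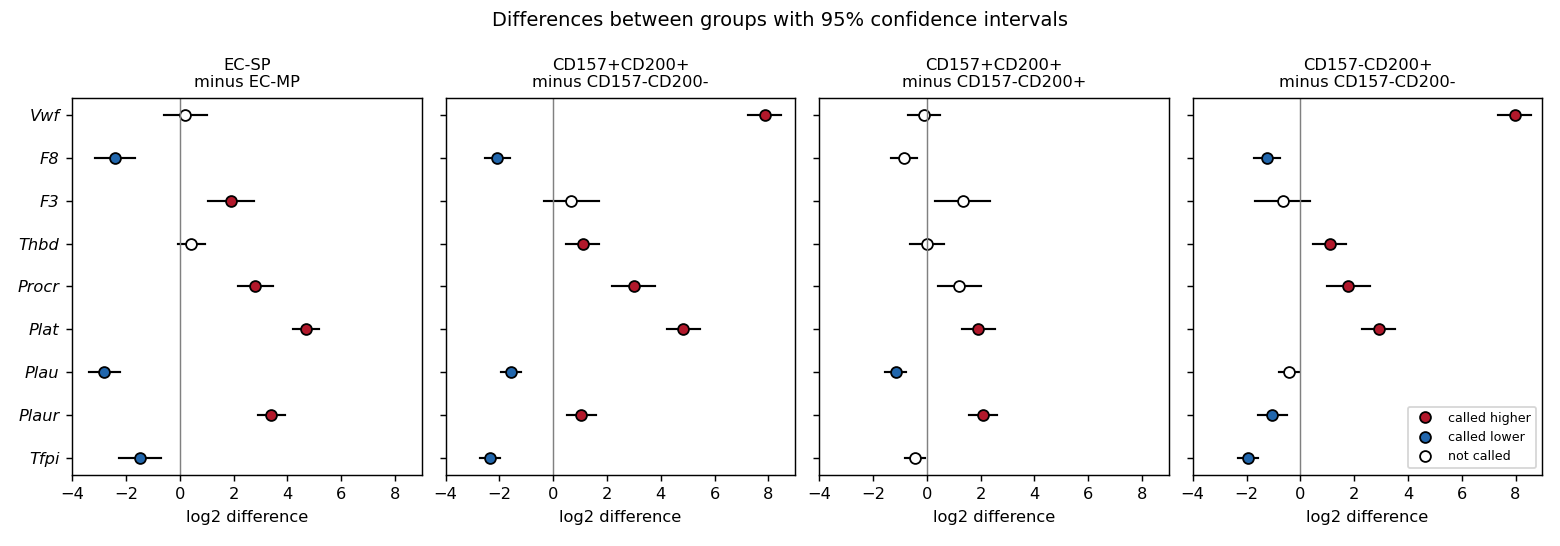
Log2 differences of the 9 genes with 95% confidence intervals in the 4 comparisons, red where called higher, blue where called lower and white where not called. Plat stands at 4.70 in EC-SP against EC-MP and at 4.83 in CD157+CD200+ against CD157-CD200-, and F8, Plau and Tfpi lie below 0 in both.

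Promoter sequence was at hand for 5 of the 9 genes, F3, F8, Plaur, Procr and Tfpi. The 250 bases before the annotated start of 4 of them are shown because 3 were called higher in EC-SP and 1, F8, lower, so that windows of genes on both sides can be read beside each other. They are RefSeq sequence of build GRCm38.p6, written 5′ to 3′ on the gene's strand, and capitals mark the AP-1 letters TGANTCA, a palindrome that reads the same on both strands. The windows lie at chr3:121723287-121723536 (F3, plus strand), chr7:24462233-24462482 (Plaur, plus strand), chr2:155750967-155751216 (Procr, plus strand) and chrX:75380042-75380291 (F8, minus strand).
F3: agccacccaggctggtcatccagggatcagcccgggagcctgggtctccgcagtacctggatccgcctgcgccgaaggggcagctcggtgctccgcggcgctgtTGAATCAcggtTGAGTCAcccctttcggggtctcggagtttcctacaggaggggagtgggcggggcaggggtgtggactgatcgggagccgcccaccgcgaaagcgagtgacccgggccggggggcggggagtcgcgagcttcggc
Plaur: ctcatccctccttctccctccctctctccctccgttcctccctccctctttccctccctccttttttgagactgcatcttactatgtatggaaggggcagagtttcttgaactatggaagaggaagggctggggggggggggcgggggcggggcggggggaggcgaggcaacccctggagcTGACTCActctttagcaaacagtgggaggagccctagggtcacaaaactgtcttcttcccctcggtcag
Procr: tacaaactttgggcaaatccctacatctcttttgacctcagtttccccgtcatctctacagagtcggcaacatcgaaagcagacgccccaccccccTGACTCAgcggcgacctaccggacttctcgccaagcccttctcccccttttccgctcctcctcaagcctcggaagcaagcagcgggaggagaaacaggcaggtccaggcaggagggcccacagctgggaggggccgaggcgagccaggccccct
F8: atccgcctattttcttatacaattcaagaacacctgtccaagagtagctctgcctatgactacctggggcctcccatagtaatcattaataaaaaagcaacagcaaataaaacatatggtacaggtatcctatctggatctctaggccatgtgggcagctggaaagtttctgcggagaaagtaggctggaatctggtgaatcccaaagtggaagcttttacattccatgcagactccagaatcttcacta
The F3 window held TGAATCA, whose first base is 146 bases before the start, and TGAGTCA at 135 bases before it. The Plaur window held TGACTCA at 69 bases and the Procr window TGACTCA at 154 bases before the start. No match was found in the F8 window or in either Tfpi window, which are chr2:84474175-84474424 and chr2:84476760-84477009, both on the minus strand. Of 32851 windows of this length from 27025 genes, 6.75% held these letters. Other letters searched on both strands were CACCC, the core of KLF sites, found in F3, Procr and both Tfpi windows and in 52.0% of all windows, and AGATAA, to which factors of the Gata2 family bind, found in 1 Tfpi window and in 9.99% of all. The motifs were picked after values were known, and a match is a description of letters, not of binding.

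Vwf, the gene of von Willebrand factor, was high in both CD200+ groups and low in CD157-CD200-, and was not called between EC-SP and EC-MP. Its level was 7.95, 7.84 and 8.04 in CD157+CD200+, 8.01, 8.02 and 8.10 in CD157-CD200+, and 0.44, -0.62 and 0.41 in CD157-CD200-. Every CD200+ array lay more than 7 log2 units above every CD157-CD200- array, whose probe was still well above background on 3 of 3 arrays. The difference was 7.86 ± 0.27 (SE) between CD157+CD200+ and CD157-CD200-, 233-fold (limma adjusted p = 1.92e-07), and 7.96 ± 0.27 between CD157-CD200+ and CD157-CD200-, 249-fold (adjusted p = 2.19e-07). On the 3 slides the CD157+CD200+ difference was 7.50, 8.46 and 7.63. Between CD157+CD200+ and CD157-CD200+ the ranges overlapped, and the difference of -0.10 had a 95% interval of -0.71 to 0.51 (adjusted p = 1.00). In these sorted bulk samples, fewer cells of a type that carries a transcript and less of it per cell cannot be told apart.

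In EC-SP, Vwf stood at 6.54, 6.28 and 6.84, against 5.75, 6.19 and 7.11 in EC-MP. The EC-MP arrays spanned the EC-SP arrays on both sides. The difference of 0.20 ± 0.35 was not called (limma adjusted p = 0.769), with an interval of -0.59 to 1.00, and within slides it was 0.79, 0.08 and -0.27, so its direction differed between them; after quantile normalization it was -0.035. Over the 5 groups the order of mean levels was CD157-CD200+, CD157+CD200+, EC-SP, EC-MP and CD157-CD200-, and the 2 CD200+ groups, like EC-SP and EC-MP, had overlapping ranges. Platelets also carry Vwf transcript. Of 6 megakaryocyte and platelet genes, those well above background on all 3 arrays numbered 2 in EC-SP and 3 in EC-MP, and 1 in CD157+CD200+, 3 in CD157-CD200+ and 3 in CD157-CD200-, with Gp1bb among them in every group. No array of the CD200+ groups had Ppbp, Gp9 or Gp6 well above background. Of 3 tested, Pf4 was lower in EC-SP than in EC-MP and in each CD200+ group than in CD157-CD200-, and Itga2b and Gp1bb were not called. The summed log2 level of all 6 was 2.19 to 2.39 in EC-SP and 2.21 to 2.34 in EC-MP, and 2.03 to 2.26 in CD157+CD200+, 2.10 to 2.48 in CD157-CD200+ and 2.43 to 2.70 in CD157-CD200-. The part of platelet RNA in the Vwf values was not tested.

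F8, the gene of coagulation factor VIII, was lower in both CD200+ groups than in CD157-CD200-, the opposite of Vwf, and was lower in EC-SP than in EC-MP. Its level was 2.43, 2.06 and 1.91 in EC-SP, against 4.98, 4.77 and 3.84 in EC-MP. No EC-SP array reached the lowest EC-MP array. The difference was -2.40 ± 0.32, 5.27-fold lower in EC-SP (limma adjusted p = 0.00144), and -2.55, -2.71 and -1.93 on the 3 slides. In the antibody sort F8 stood at 2.82, 2.31 and 2.87 in CD157+CD200+, at 3.59, 3.35 and 3.60 in CD157-CD200+ and at 4.81, 4.51 and 4.93 in CD157-CD200-. The 3 groups formed a staircase without overlap. The F8 difference was -2.09 ± 0.21 in CD157+CD200+ (adjusted p = 9.98e-05) and -1.24 ± 0.21 in CD157-CD200+ (adjusted p = 0.00348), each against CD157-CD200-. This last call was lost without replicate 1 (adjusted p = 0.107). The difference between the CD200+ groups, -0.85 ± 0.21, was not called (adjusted p = 0.128) but was called with the slide as a block (adjusted p = 0.0121), and a second F8 probe, made for another transcript, gave -1.02 ± 0.19 (adjusted p = 0.0492). Over all 5 groups F8 was highest in CD157-CD200- and EC-MP, whose ranges overlapped, then CD157-CD200+, and lowest in CD157+CD200+ and EC-SP, which also overlapped.

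F3, the gene of tissue factor, was higher in EC-SP and was called in no comparison of the antibody sort. It stood at 0.97, 1.13 and 1.11 in EC-SP, against -1.77, -0.44 and -0.31 in EC-MP. The EC-SP arrays were close together and above all EC-MP arrays, among which replicate 1 was lowest. F3 was higher by 1.91 ± 0.37 in EC-SP, 3.75-fold (limma adjusted p = 0.00867), and by 2.74, 1.57 and 1.42 within slides. Without replicate 2 of both groups the call was lost (adjusted p = 0.0776). A second F3 probe was well above background on 3 of 3 EC-SP arrays and 0 of 3 EC-MP arrays. After the antibody sort F3 was dim, at -0.90, -1.04 and -0.34 in CD157+CD200+, -1.37, -3.21 and -1.69 in CD157-CD200+ and -1.88, -1.55 and -0.88 in CD157-CD200-. The ranges of CD157-CD200+ and CD157-CD200- overlapped, and CD157+CD200+ exceeded CD157-CD200+ by 1.33 ± 0.46 and CD157-CD200- by 0.67 ± 0.46 without a call (adjusted p = 0.376 and 0.427). CD157-CD200+ against CD157-CD200- gave -0.66 ± 0.46 (adjusted p = 0.505). In the order of levels EC-SP came first and apart, and each of the other 4 groups overlapped its neighbour. Genes of bile duct cells, which also express tissue factor, moved in the same comparison: 5 of 8 cholangiocyte markers were higher in EC-SP than in EC-MP, with a summed log2 level of 3.62 to 4.07 in EC-SP and 2.32 to 2.46 in EC-MP. All 8 were well above background on all 3 EC-SP arrays and 7 on all 3 EC-MP arrays. Their part in the F3 difference was not tested.

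Tfpi, the gene of tissue factor pathway inhibitor, was lower wherever F8 was called lower. It stood at 3.03, 2.79 and 2.44 in EC-SP, against 4.74, 4.44 and 3.48 in EC-MP. The ranges were apart, with replicate 3 lowest in both groups. The difference was -1.46 ± 0.34 (limma adjusted p = 0.0201), and -1.71, -1.65 and -1.03 within slides. The call depended on single arrays and on the filter: adjusted p was 0.0704 without a filter on dim probes, 0.107 without replicate 1, 0.177 without replicate 2, and between 0.0638 and 0.0743 without replicate 1 of EC-MP, replicate 2 of either group or replicate 3 of EC-SP. Among the antibody-sorted groups Tfpi stood at 2.76, 2.65 and 2.82 in CD157+CD200+, 3.30, 3.13 and 3.08 in CD157-CD200+ and 5.20, 4.94 and 5.21 in CD157-CD200-. Both CD200+ groups lay well below CD157-CD200-. The difference was -2.37 ± 0.16 for CD157+CD200+ (adjusted p = 9.08e-06) and -1.94 ± 0.16 for CD157-CD200+ (adjusted p = 4.60e-05). The difference between CD157+CD200+ and CD157-CD200+, -0.42 ± 0.16, was not called (adjusted p = 0.472). The other 2 Tfpi probes, 1 of them made for another transcript, gave -2.08 and -2.49 in CD157+CD200+ against CD157-CD200-. In the order of levels CD157-CD200- came first, then EC-MP and CD157-CD200+, and EC-SP and CD157+CD200+ overlapped at the end.

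Thbd, the gene of thrombomodulin, the thrombin receptor that turns thrombin towards activation of protein C, was higher in both CD200+ groups than in CD157-CD200- and was not called between EC-SP and EC-MP. It stood at 5.21, 5.14 and 5.03 in EC-SP, against 4.998, 4.59 and 4.49 in EC-MP, apart by a narrow gap. The difference of 0.43 ± 0.23 was not called (limma adjusted p = 0.242; interval -0.08 to 0.95). By antibody sort it stood at 5.50, 5.41 and 5.40 in CD157+CD200+, 5.54, 5.33 and 5.43 in CD157-CD200+ and 4.78, 3.64 and 4.59 in CD157-CD200-. The CD200+ groups overlapped each other and lay above CD157-CD200-, among which replicate 2 was lowest. Thbd was higher than in CD157-CD200- by 1.102 ± 0.27 in CD157+CD200+ (adjusted p = 0.0230) and by 1.095 ± 0.27 in CD157-CD200+ (adjusted p = 0.0284). On the slide of replicate 2 the CD157+CD200+ difference was 1.77, and on the others 0.72 and 0.81. The CD157+CD200+ call was lost without any 1 of the 3 replicate numbers (adjusted p up to 0.118), without any 1 array of CD157+CD200+ (up to 0.0801) and without the filter on dim probes (0.0568). The CD157-CD200+ call was lost without any 1 replicate number (up to 0.148), without any 1 array of CD157-CD200+ (up to 0.105), without replicate 1 of CD157+CD200+ (0.0504) and without the filter (0.0702).

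Procr is the gene of the endothelial protein C receptor, which presents protein C to thrombomodulin and has been used as a surface marker of vascular progenitors. Its mean level was highest in EC-SP and then CD157+CD200+, an order that Plat, Plaur and F3 shared. Procr stood at 4.17, 4.36 and 4.84 in EC-SP, against 1.34, 1.51 and 2.10 in EC-MP. Every EC-SP array was at least 2 log2 units above every EC-MP array. The difference was 2.81 ± 0.29, 7.01-fold (limma adjusted p = 0.000352), and 2.83, 2.86 and 2.74 within slides, a spread narrower than that of the arrays themselves. In the antibody sort Procr stood at 3.37, 3.42 and 4.03 in CD157+CD200+, 2.15, 2.03 and 3.01 in CD157-CD200+ and 0.23, 0.32 and 1.29 in CD157-CD200-. Replicate 3 was highest in all 5 groups, and the 3 antibody-sorted groups did not overlap. Procr was higher by 2.99 ± 0.36 in CD157+CD200+ (7.93-fold, adjusted p = 0.000336) and by 1.78 ± 0.36 in CD157-CD200+ (3.43-fold, adjusted p = 0.00971), each against CD157-CD200-. The CD157-CD200+ call was lost without replicate 1 (0.153) or replicate 2 (0.101). Between the CD200+ groups the difference of 1.21 ± 0.36 was not called (adjusted p = 0.250), but with the slide as a block it was (adjusted p = 0.00629). EC-SP, CD157+CD200+, CD157-CD200+, EC-MP and CD157-CD200- was the order of levels, in which only CD157-CD200+ and EC-MP overlapped.

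Plat, the gene of tissue-type plasminogen activator (tPA), showed the largest rise of the 9 genes in EC-SP. It stood at 2.81, 2.69 and 2.80 in EC-SP, against -2.11, -1.98 and -1.71 in EC-MP. The arrays within each group were close and the groups far apart. Plat was higher by 4.70 ± 0.21 in EC-SP, 26.1-fold (limma adjusted p = 1.70e-05), and by 4.93, 4.67 and 4.51 within slides. In the antibody sort it stood at 1.84, 1.72 and 1.09 in CD157+CD200+, -0.39, -0.29 and -0.41 in CD157-CD200+ and -3.75, -2.81 and -3.28 in CD157-CD200-, where the probe was well above background on 2 of 3 arrays. The groups formed a staircase without overlap. Plat was higher by 4.83 ± 0.27 in CD157+CD200+ (28.5-fold, adjusted p = 2.60e-06) and by 2.92 ± 0.27 in CD157-CD200+ (7.55-fold, adjusted p = 8.64e-05), each against CD157-CD200-. CD157+CD200+ exceeded CD157-CD200+ by 1.92 ± 0.27, 3.77-fold (adjusted p = 0.0107), a call lost without replicate 1 (0.281), 2 (0.184) or 3 (0.0991), without replicate 1 of CD157+CD200+ (0.064), replicate 2 of CD157+CD200+ (0.0622) or replicate 1 of CD157-CD200+ (0.0602). EC-SP, CD157+CD200+, CD157-CD200+, EC-MP and CD157-CD200- was the order of levels, with no overlap between neighbours.

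Plau and Plaur, the genes of urokinase-type plasminogen activator (uPA) and of the receptor that holds uPA on the cell surface, moved in opposite directions between EC-SP and EC-MP. Plau stood at 0.57, 0.57 and 1.22 in EC-SP, against 3.34, 3.73 and 3.69 in EC-MP. Plaur stood at 2.91, 2.85 and 3.21 in EC-SP, against -0.21, -0.57 and -0.45 in EC-MP. Neither gene's groups overlapped. The Plau difference was -2.80 ± 0.26 in EC-SP (6.97-fold lower, limma adjusted p = 0.000231), and -2.77, -3.16 and -2.47 on the 3 slides. Plaur was higher by 3.40 ± 0.22 (10.6-fold, adjusted p = 4.85e-05), and by 3.12, 3.42 and 3.66 within slides.

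In the antibody sort Plau stood at 2.43, 2.35 and 2.64 in CD157+CD200+, 3.62, 3.65 and 3.62 in CD157-CD200+ and 3.86, 4.03 and 4.25 in CD157-CD200-. The CD157+CD200+ arrays lay clearly below the others. The Plau difference was -1.58 ± 0.17 in CD157+CD200+ against CD157-CD200- (limma adjusted p = 0.000168) and -1.16 ± 0.17 against CD157-CD200+ (adjusted p = 0.0122). This last call was lost without replicate 1 (0.419), 2 (0.270) or 3 (0.0969), without replicate 1 or 2 of CD157+CD200+ (0.0717 and 0.0674) and without any 1 array of CD157-CD200+ (0.0506 to 0.069). Between CD157-CD200+ and CD157-CD200- it was -0.42 ± 0.17, not called (adjusted p = 0.179) except with the slide as a block (adjusted p = 0.0431). CD157-CD200- had the highest level, then CD157-CD200+ and EC-MP, which overlapped, then CD157+CD200+ and, last, EC-SP.

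Plaur moved in opposite directions between the 3 antibody-sorted groups. It stood at 1.83, 2.20 and 1.55 in CD157+CD200+, -0.16, 0.09 and -0.61 in CD157-CD200+ and 0.92, 0.86 and 0.67 in CD157-CD200-. The group between the others in the sort was the lowest, with no overlap. Plaur was higher in CD157+CD200+ by 1.04 ± 0.24 than in CD157-CD200- (limma adjusted p = 0.0146) and by 2.08 ± 0.24 than in CD157-CD200+ (4.24-fold, adjusted p = 0.00382), and fell by 1.04 ± 0.24 in CD157-CD200+ against CD157-CD200- (adjusted p = 0.0179). On each of the 3 slides all of these differences had the same direction as the means. The first call was lost without replicate 1 (0.182), replicate 2 (0.0974) or replicate 2 of CD157+CD200+ (0.0586), and the second without replicate 1 (0.250) or 2 (0.0890). The third was lost without replicate 1 (0.259), 2 (0.0531) or 3 (0.0643), without replicate 1 or 3 of CD157-CD200+ (0.0566 and 0.0683) and without replicate 1 or 2 of CD157-CD200- (0.0699 and 0.0501). EC-SP had the highest level and CD157-CD200+ and EC-MP, which overlapped, the lowest.

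The CD157 step (CD157+CD200+ minus CD157-CD200+) and the CD200 step (CD157-CD200+ minus CD157-CD200-) were then set against each other, which asks whether a gene changes at 1 step more than at the other. The steps share the CD157-CD200+ arrays, which enter them with opposite sign. Cd200 was higher by 1.06 at the CD157 step, so that step is not one of CD157 alone. The steps differed for 3 of 9 genes, 2 with the CD157 step above and 1 below, against 4.18% of 23701 features (1.87% higher and 2.31% lower). For Vwf the CD157 step minus the CD200 step was -8.06 ± 0.47 (limma adjusted p = 3.07e-05). For Plaur it was 3.13 ± 0.41 (adjusted p = 0.00239), a call lost without replicate 1 (0.147). For Tfpi it was 1.52 ± 0.28 (adjusted p = 0.0165), but adjusted p was 0.115 in 1 fit over all 15 arrays, 0.130 and 0.0587 with its other probes, 0.279, 0.123 and 0.168 without replicate 1, 2 or 3, and 0.0591, 0.0845 and 0.0909 without replicate 1, 2 or 3 of CD157-CD200+. Plat and Procr took part of their difference at each step, 1.92 and 2.92 for Plat and 1.21 and 1.78 for Procr, and the steps were not called different (adjusted p = 0.427 and 0.898). For F8 the steps were -0.85 and -1.24 (adjusted p of the difference 0.850). The CD157 step minus the CD200 step was 1.99 ± 0.80 for F3, -1.09 ± 0.47 for Thbd and -0.74 ± 0.30 for Plau, none of them called (adjusted p = 0.301, 0.363 and 0.300).

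**Figure D3:**
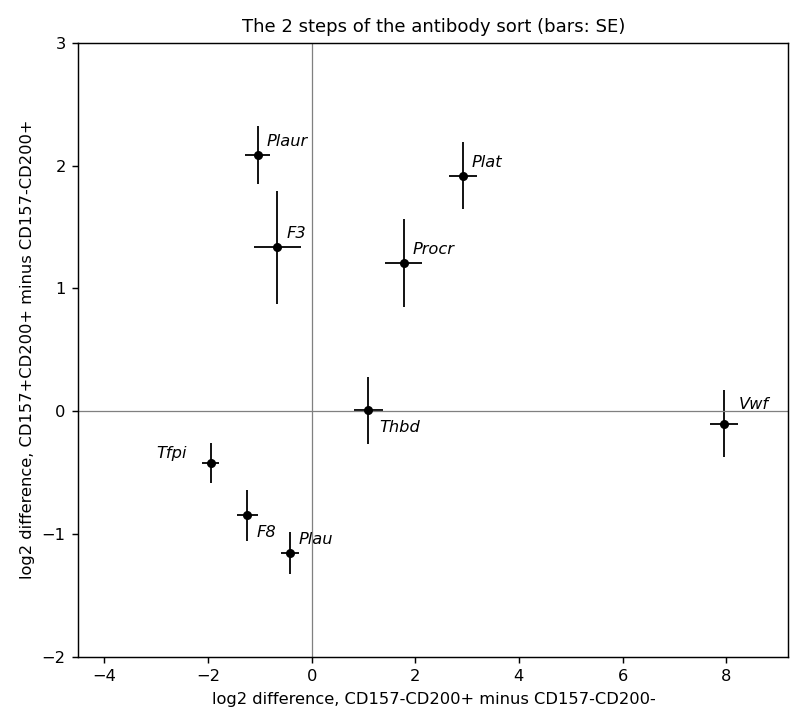
Log2 difference at the CD157 step (vertical, CD157+CD200+ minus CD157-CD200+) against that at the CD200 step (horizontal, CD157-CD200+ minus CD157-CD200-) for the 9 genes, with SE bars; both steps use the CD157-CD200+ arrays. Vwf lies far right at 7.96 with a CD157 step of -0.10, Plaur has a CD157 step of 2.08 and a CD200 step of -1.04, and Plat is above 0 on both axes.

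The sorts were set against each other in the same way, as the EC-SP minus EC-MP difference minus the CD157+CD200+ minus CD157-CD200- difference, in 1 fit of 15 arrays that share no array between the sorts. They differed for 3 of 9 genes, 1 higher and 2 lower, against 5.05% of 25062 features (2.07% higher and 2.97% lower). Of all those calls 41.1% were higher, 29.1% with the scaling of the authors' series table and 54.8% after normexp, another background correction. For Vwf the value was -7.66 ± 0.47 (limma adjusted p = 3.32e-07), and for Plau, lower in both comparisons and further down in EC-SP, it was -1.22 ± 0.30 (adjusted p = 0.0275). For Plaur, higher in both, it was 2.36 ± 0.32 (adjusted p = 0.000515). The Plaur call was lost without replicate 1 of all groups (0.0612). The Plau call was lost without the filter on dim probes (0.0598), without replicate 1 (0.312), 2 (0.281) or 3 (0.0582) of all groups, without replicate 1 or 2 of EC-SP (0.0673 and 0.069), replicate 2 or 3 of EC-MP (0.0647 and 0.0656), replicate 1 or 3 of CD157+CD200+ (0.0609 and 0.0671) or replicate 1 of CD157-CD200- (0.0736). For Tfpi 0.90 ± 0.39 was not called (adjusted p = 0.246) but was with the slide as a block (adjusted p = 0.0262). For Plat the sorts differed by -0.13, with an interval of -0.88 to 0.62, and for Procr by -0.18, with an interval of -1.23 to 0.88. For Plat that value turned to 0.91 ± 0.20 after normexp (adjusted p = 0.0112), so this value depended on the background correction. For F3 the sorts differed by 1.23 ± 0.65 without a call (adjusted p = 0.390), and by 1.16 after normexp with one (adjusted p = 0.0441). For Thbd -0.67 ± 0.36 and for F8 -0.31 ± 0.40 were not called (adjusted p = 0.400 and 0.853).

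**Figure D4:**
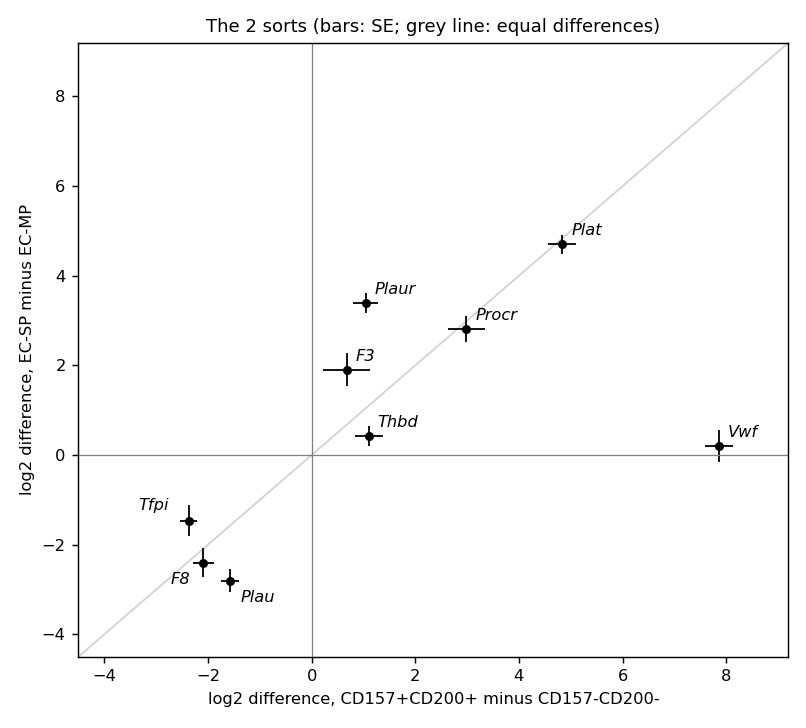
Log2 difference EC-SP minus EC-MP (vertical) against CD157+CD200+ minus CD157-CD200- (horizontal) for the 9 genes, with SE bars and a grey line of equal differences. Plat and Procr lie near the line, Plaur lies above it and Vwf lies far to the right, at 7.86 against 0.20.

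Beyond the 9 genes, 74 others of the same pathways were looked up in 7 lists. Of the fibrinolysis list, Thbs1, the gene of thrombospondin 1, which binds plasminogen and plasminogen activators, was higher by 4.19 ± 0.30 in EC-SP (limma adjusted p = 6.24e-05) and by 4.89 ± 0.38 in CD157+CD200+ against CD157-CD200- (adjusted p = 1.96e-05). It was also higher by 4.36 ± 0.38 in CD157+CD200+ than in CD157-CD200+ (adjusted p = 0.00104). In all, 4 of 11 tested fibrinolysis genes were higher and 1 lower in CD157+CD200+ against CD157-CD200-, beside 8.09% higher and 7.11% lower of all features, and the share lower was near that of all features. The lower one was Plg, the plasminogen gene, at -1.85 ± 0.33 (adjusted p = 0.00421), and Anxa2, whose product binds plasminogen and tPA at the cell surface, was higher by 1.00 ± 0.19 (adjusted p = 0.00553).

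Genes of von Willebrand factor storage and clearance were called in both directions. Stab2 is in this list and also in that of the sinusoidal markers. Myrip, whose product ties storage granules to the actin skeleton, was not well above background on any CD157-CD200- array and exceeded its level there by at least 72.1-fold in CD157+CD200+ (limma adjusted p = 8.32e-09) and by at least 59.5-fold in CD157-CD200+ (adjusted p = 1.30e-08). Selp, the gene of P-selectin, a granule membrane protein, was higher by 5.29 ± 0.26 in CD157+CD200+ than in CD157-CD200- (adjusted p = 1.02e-06). Stab2, a sinusoidal scavenger receptor that clears von Willebrand factor, differed by -5.38 ± 0.35 in EC-SP against EC-MP (adjusted p = 4.14e-05) and by -7.07 ± 0.19 in CD157+CD200+ against CD157-CD200- (adjusted p = 5.51e-08), and Stab1 and Angpt2 by -1.78 ± 0.26 and -1.80 ± 0.27 in EC-SP (adjusted p = 0.00235 and 0.00240). Of the list, EC-SP had 2 of 21 tested genes higher and 7 lower, where 9.11% of all features were higher and 7.44% lower, so its share higher was near that of all features. In CD157+CD200+ against CD157-CD200-, 4 of 22 were higher and 4 lower, where 8.09% of all features were higher and 7.11% lower. Both pairs of shares also stand behind the counts of the other lists in these comparisons.

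Of the genes by which endothelium restrains platelets, Entpd1, which encodes the ATP- and ADP-degrading enzyme CD39, was higher by 5.76 ± 0.25 in CD157+CD200+ than in CD157-CD200- (limma adjusted p = 5.11e-07) and differed by 0.40 between EC-SP and EC-MP without a call (adjusted p = 0.364); the difference between the sorts was -5.36 ± 0.37 (adjusted p = 8.19e-07). Ptgis, the gene of prostacyclin synthase, was higher by 2.05 ± 0.26 in EC-SP (adjusted p = 0.00106), whereas Ptgs1, which acts before it in prostacyclin synthesis, fell by 2.18 ± 0.24 (adjusted p = 0.000543). Nt5e, the gene of CD73, which makes adenosine from AMP, differed by -3.12 ± 0.57 in EC-SP, where 1 of 3 arrays had it well above background (adjusted p = 0.00659), while in CD157+CD200+ it exceeded CD157-CD200-, where no array had it well above background, by at least 8.06-fold (adjusted p = 8.99e-05). Nos3, the endothelial nitric oxide synthase gene, was higher by 0.80 ± 0.17 in CD157+CD200+ than in CD157-CD200- (adjusted p = 0.0110). Of 5 platelet-restraining genes, EC-SP had 1 higher and 2 lower, and 3 were higher in CD157+CD200+ against CD157-CD200-. F2r, the gene of the thrombin receptor PAR1, differed by -1.04 ± 0.23 in EC-SP (adjusted p = 0.0159) and by -1.12 ± 0.17 in CD157+CD200+ against CD157-CD200- (adjusted p = 0.00135). F2rl2, the gene of the protease-activated receptor PAR3, was not well above background on any EC-SP or CD157+CD200+ array, and its level was lower than that of EC-MP by at least 2.22-fold (adjusted p = 0.0177) and than that of CD157-CD200- by at least 4.49-fold (adjusted p = 0.00623). Of 4 receptor genes these 2 were called, both lower, in each comparison. Among the anticoagulants, Proc, the protein C gene, was higher by 1.37 ± 0.25 in EC-SP (adjusted p = 0.00638), as was Tfpi2, a relative of Tfpi, by 1.71 ± 0.37 (adjusted p = 0.0151). Serpinc1, the antithrombin gene, differed by -1.42 ± 0.37 in EC-SP, where 1 of 3 arrays had it well above background (adjusted p = 0.0301), and by -1.30 ± 0.27 in CD157+CD200+ against CD157-CD200- (adjusted p = 0.00868). Pros1, the gene of the protein C cofactor protein S, fell by 1.06 ± 0.17 in CD157+CD200+ against CD157-CD200- (adjusted p = 0.00202). Of that list EC-SP had 2 of 7 tested genes higher and 1 lower, and 2 of 6 were lower in CD157+CD200+ against CD157-CD200-.

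Coagulation factors made by hepatocytes were lower where they were called: 2 of 7 tested in EC-SP, Fgb at -1.91 ± 0.34 (limma adjusted p = 0.00585) and Kng1, the kininogen gene, at -1.78 ± 0.50 (adjusted p = 0.0418), each well above background on 1 of 3 EC-SP arrays, and 4 of 6 in CD157+CD200+ against CD157-CD200-, led by Fgb at -2.78 ± 0.26 (adjusted p = 5.88e-05) and Fgg at -1.85 ± 0.27 (adjusted p = 0.00122), both fibrinogen chains, and Kng1 at -2.28 ± 0.53 (adjusted p = 0.0171). Of 9 tested hepatocyte markers, EC-SP had 3 higher, Alb among them, and 2 lower than EC-MP, with a summed log2 level of 3.34 to 3.65 in EC-SP and 3.31 to 3.45 in EC-MP. In the antibody sort, 8 of 9 tested were lower in CD157+CD200+, with a summed log2 level of 3.73 to 4.14 in CD157+CD200+, 3.73 to 3.87 in CD157-CD200+ and 5.43 to 5.70 in CD157-CD200-. F2 and Fgb are in both lists. The part of hepatocyte RNA in these values was not tested. Of 7 regulator genes, Gata2 was higher by 2.03 ± 0.21 in EC-SP (adjusted p = 0.000427) and Nfe2l2 by 0.86 ± 0.22 (adjusted p = 0.0273), and 0 of 7 were called in CD157+CD200+ against CD157-CD200-, where limma gave 1 of them, Klf4 at 0.88 ± 0.27 (adjusted p = 0.0542), an unadjusted p under 0.05.

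In CD157-CD200+ against CD157-CD200-, the fibrinolysis list had 1 of 11 tested genes higher and 2 lower, the storage list 4 of 22 higher and 3 lower, and the platelet-restraining list 4 of 5 higher. The coagulation factors had 4 of 6 lower, the anticoagulants 2 of 6 lower, the receptors 1 of 4 higher and 2 lower, and the regulators 0 of 7 called by limma, with 0 at an unadjusted p under 0.05. Of all features 6.31% were higher and 5.54% lower there, and with so few genes tested a count of 1 says little of a list. Between CD157+CD200+ and CD157-CD200+, Thbs1 was the only call of the 7 lists.

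**Figure D5:**
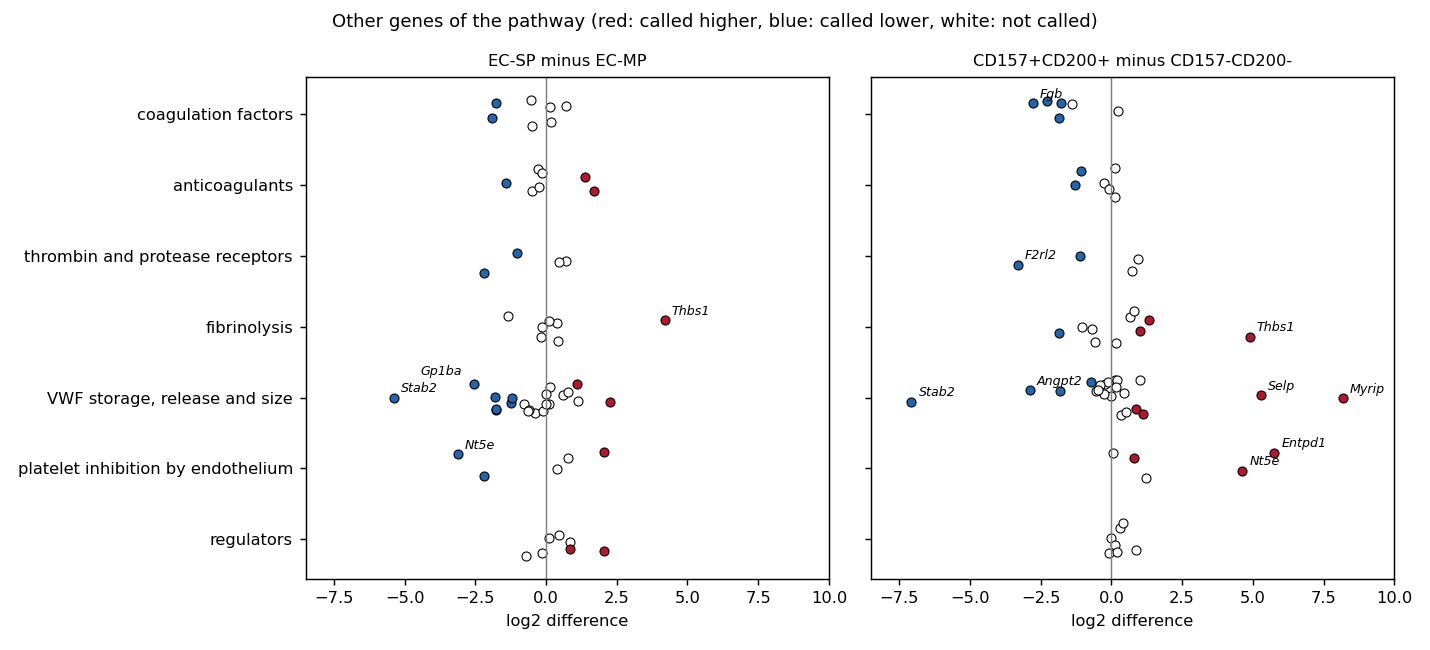
Log2 differences of tested genes of the 7 other lists, EC-SP minus EC-MP and CD157+CD200+ minus CD157-CD200-, as fitted values that include genes not well above background in 1 of the groups; red and blue are calls, white is not called, and height within a list only separates points. Thbs1 is above 4 in both, Stab2 is below -5 in both, and Entpd1 is near 0 in the first and near 6 in the second.

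Markers of other endothelium and other cells differed between the same groups. All 5 sinusoidal markers were lower in EC-SP than in EC-MP and in each CD200+ group than in CD157-CD200-, with a median log2 difference of -5.70 in EC-SP and -5.62 in CD157+CD200+. Their summed log2 level was 2.20 to 3.05 in EC-SP and 7.76 to 8.69 in EC-MP, and 4.90 to 5.27 in CD157+CD200+, 6.09 to 6.38 in CD157-CD200+ and 9.32 to 9.70 in CD157-CD200-. F8, Tfpi and Plau were lower in EC-SP against EC-MP and in CD157+CD200+ against CD157-CD200-, as sinusoidal markers were. The other members were higher or not called in these comparisons. In CD157-CD200+ against CD157-CD200-, F8 and Tfpi were lower, as sinusoidal markers were, but Plau was not called (-0.42). Plaur was called lower there (-1.04). Of 4 lymphatic markers, 3 were lower in EC-SP than in EC-MP: Mmrn1 at -4.98 ± 0.33 (limma adjusted p = 5.16e-05), and Pdpn and Reln, which no EC-SP array had well above background. Their summed log2 level was -0.55 to 0.16 in EC-SP and 2.49 to 3.44 in EC-MP, and -1.15 to -0.85 in CD157+CD200+, -1.20 to -0.67 in CD157-CD200+ and -0.69 to -0.03 in CD157-CD200-. Of the 2 tested in the antibody sort, Mmrn1 was lower in CD157+CD200+ than in CD157-CD200-. The part of cell make-up in the values of the 9 genes was not tested. Of 8 stellate cell and fibroblast markers, the summed log2 level was 2.73 to 3.53 in EC-SP and 0.25 to 0.94 in EC-MP, and 3.84 to 4.49 in CD157+CD200+, 3.73 to 4.63 in CD157-CD200+ and 1.38 to 1.80 in CD157-CD200-, while no array had Pdgfra or Dpt well above background. The genes of that list did not move one way: of 5 tested in EC-SP, Rgs5 was higher and Lrat lower, and of 6 tested in CD157+CD200+ against CD157-CD200-, Rgs5 and Pdgfrb were higher and Dcn and Lrat lower. Of 6 tested Kupffer cell and macrophage markers, 1 was lower in EC-SP than in EC-MP. Of 8 tested in the antibody sort, 5 were lower in CD157+CD200+ and 4 in CD157-CD200+, each against CD157-CD200-. Of monocyte and neutrophil markers, 0 of 3 tested were called between EC-SP and EC-MP. In the antibody sort 1 of 4 was higher in CD157+CD200+ and 0 of 4 were called in CD157-CD200+, each against CD157-CD200-. The leukocyte gene Ptprc was not called in these comparisons.

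For each of the 9 genes the 3 genes most like it were taken by Pearson's r over the 15 arrays, centred within each set of arrays, among 14925 genes. The arrays form 5 groups, so r includes the differences between group means, and it is given without a p. Vwf was most like Zfp423, Fstl1 and Entpd1 (each 0.99), and Procr most like Mid1ip1, Arid5a and Cadm1 (each 0.99). Plat was closest to Mal, Pcp4l1 and Mcf2l (each 0.99), and Plaur to Myc (0.98), Hbegf (0.97) and Cd14 (0.97). F8 was most like Cd55b (0.99), Dse (0.98) and Oit3 (0.98), of which Oit3 is one of the sinusoidal markers above. Tfpi was most like Cyp4b1 (0.99), Mmd (0.98) and Gmfg (0.98), and Plau like Itga8 (0.98), Slc29a1 (0.97) and Hspa12a (0.97). Thbd had Cd9 (0.95), Adipor2 (0.93) and Col5a2 (0.92) nearest. The 3 nearest to F3 were Sox9 (0.94), one of the cholangiocyte markers above, Elf3 (0.92) and Bex1 (0.91).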

How the data were processed

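The deposited scanner files hold, per the file headers, the output of Agilent Feature Extraction, version 10.10.1.1 (EC-SP, EC-MP) or 11.5.1.1 (all other groups): the intensity of each spot as a background-subtracted processed signal, with flags for spots well above background, saturated or outlying. The authors' series table holds the same processed intensity times 1 constant per array (5.46 to 10.1), a scaling whose basis no source used here gives. Here, control spots were left out, outlying spots were set missing, and log2 of the processed signal minus log2 of the array's 75th percentile was averaged over spots of a probe. A probe was tested if 1 or more groups of the fit had it well above background on 3 of 3 arrays, and the brightest such probe, by its mean over the 15 arrays, stood for its gene. Probes were named by accession through RefSeq: 28059 of 55681 had a symbol. Probes without a symbol were kept as features, grouped by the name the array annotation gives them. EC-SP and EC-MP were compared in a fit of 6 arrays, the CD157 and CD200 groups in a fit of 9, and the sorts in a fit of 15, with lmFit and eBayes of limma 3.58.1 (R 4.3.3) and Benjamini-Hochberg adjustment over all features. Tables were made with Python 3.11.15, pandas 2.3.3 and numpy 2.4.6. The number of arrays limits the precision.

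The text names all 9 genes in every comparison and, of each list, the called genes with the lowest adjusted p, up to 3, or the lowest p where none was called, in EC-SP against EC-MP and CD157+CD200+ against CD157-CD200-; the same rule was not carried out by name in the other comparisons, where lists are given as counts. One gene of the fibrinolysis list is not reported here, by name or in the plot of the lists, though the counts include it. Members, lists and motifs were chosen with earlier results of these data known. Alternatives were normexp (offset 50, on the median signals), quantile normalization, the series table, filters, probe rules, 1 fit over all arrays, a replicate block and left-out arrays. The replicate numbers come from the sample titles and each is 1 slide. Arrays of the same number deviated together from their group means, with r of 0.26 to 0.32 over 3 pairs of EC-SP and EC-MP arrays and 0.26 to 0.62 over 9 pairs of the other arrays, against -0.20 to -0.06 and -0.49 to 0.05 for different numbers. Deviations from a group mean cancel within the group, so the negative r for different numbers follows from the positive r for the same number. From that positive r alone, the numbers are read as pairing the arrays. As each number is 1 slide, a pairing by slide and a pairing of samples cannot be told apart. The test was tested on simulated data with known changes: a first criterion, the right sign for every large change, failed in the step comparison for a feature that was not called, and after that output was seen it was replaced by the right sign in every called feature, an unbiased median and few false calls, which were met.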

Additional observations from a re-analysis of the deposited data

Results flagged for a closer look

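Vwf, Plau and Plaur differed between the sorts by a test of the difference itself, EC-SP minus EC-MP set against CD157+CD200+ minus CD157-CD200- (limma, 15 arrays). For Vwf that value was -7.66 on the log2 scale (adjusted p = 3.32e-07): the EC-SP difference was 0.20 and the CD157+CD200+ difference 7.86, and it was called under all alternatives run. For Plau it was -1.22 (adjusted p = 0.0275), from -2.80 in EC-SP and -1.58 in CD157+CD200+. The Plau call was lost without the filter on dim probes (limma adjusted p = 0.0598). With arrays left out it was lost in 10 of 18 settings (adjusted p up to 0.312). For Plaur it was 2.36 (adjusted p = 0.000515), from 3.40 in EC-SP and 1.04 in CD157+CD200+, a call lost in 1 of 18 such settings (adjusted p = 0.0612). The sets of arrays differ in scanner model, software version and sort, which cannot be told apart in these values. Groups of 3 arrays were not searched for single outlying samples.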

How the results depend on the processing

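Of the values of the 9 genes under alternatives, 1064 kept their direction and side of the threshold, 74 lost a call, 8 gained one and 21 changed sign, none of them called in the fit reported. Quantile normalization turned Vwf in EC-SP against EC-MP to -0.035, and left-out arrays gave -0.10 to 0.58. Thbd in CD157+CD200+ against CD157-CD200+ was -0.038 after normexp, -0.070 after quantile normalization and -0.027 in the series table, and -0.043 to 0.059 with arrays left out. Between the steps, Plat was 0.19 after normexp and Procr -0.94 to 0.045 with arrays left out. Between the sorts, Plat was 0.91 after normexp, with a call (limma adjusted p = 0.0112, against 0.68 to 1.00 with arrays left out), 0.16 after quantile normalization and -0.36 to 0.14 with arrays left out, Procr was 0.016 after normexp and -0.52 to 0.049 with arrays left out, and F8 was 0.0061 with its second probe, tested by itself, an alternative chosen after seeing the data. The series table moved the median of all features to -0.17 in EC-SP against EC-MP and to -0.15 between the sorts. Counts of called features moved with the setting. Without a filter on dim probes they were 2279 in EC-SP against EC-MP and 598 between the steps, and after dropping each probe that any array had not well above background, 160 between the CD200+ groups. With the replicate block, which uses the pairing, they were 6935 in CD157+CD200+ and 5282 in CD157-CD200+ against CD157-CD200-, 726 between the CD200+ groups, 2228 between the steps and 3192 between the sorts. Of the 9 genes, the block called 5 between the CD200+ groups, and normexp 5 between the sorts. There normexp raised the called features from 1265 to 1580. The block gave F8 and Procr between the CD200+ groups, Plau in CD157-CD200+ and Tfpi between the sorts a call, and changed no other call of the 9 genes. With arrays left out, called features were 1523 to 3298 in EC-SP against EC-MP, 1465 to 3385 in CD157+CD200+ and 1107 to 2746 in CD157-CD200+ against CD157-CD200-, 0 to 253 between the CD200+ groups, 151 to 971 between the steps and 309 to 1211 between the sorts. Called members were then 5 to 7, 6 to 8, 3 to 7, 0 to 3, 1 to 3 and 1 to 3 in the same order. The lowest counts came from leaving out a whole replicate number, which leaves 2 arrays per group: without replicate 2, limma called 0 features between the CD200+ groups, where 1573 had an unadjusted p under 0.05, and 0 members, where 4 did. Dim signals limit Plat in CD157-CD200-, well above background on 2 of 3 arrays, and the second F3 probe.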
